A study of Mus musculus with 4 samples.

Results

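The fatty acid elongase genes Elovl1, Elovl2, Elovl3, Elovl4, Elovl5, Elovl6 and Elovl7 were examined for open chromatin in keratinocytes of imiquimod-treated mouse skin, with and without the kinase JNK1. Peaks from 4 ATAC-seq libraries were merged wherever they overlapped by at least 1 bp. Regions overlapping a gene body extended by 25 kb on each side were kept, with 5 kb for Elovl1, whose neighbours lie close. This gave 66 elongase regions of 82641 regions in all, spread over all 7 genes.

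Elongases are membrane enzymes of the endoplasmic reticulum that carry out the first, rate-limiting condensation by which a fatty acyl-CoA is lengthened. A ketoreductase, a dehydratase and a reductase, which the family members share, complete each cycle. The members differ in the chains they take. ELOVL1, ELOVL3, ELOVL6 and ELOVL7 lengthen saturated and monounsaturated chains, ELOVL2 and ELOVL5 lengthen polyunsaturated chains, and ELOVL4 makes the ultra-long chains of the acylceramides that seal the skin barrier. ELOVL1 and ELOVL4 are both known to be needed for the water barrier of the epidermis.

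ATAC-seq uses the transposase Tn5 to insert sequencing adapters into accessible DNA. The libraries came from keratinocytes of female C57BL/6 mice of 8 to 12 weeks of age that had received a cream with 5% imiquimod (Aldara), which inflames the skin, for 8 days. WT denotes the wild type libraries (n = 2), and Mapk8-KO those from K14-Cre Mapk8 fl/fl mice (n = 2), in which Cre under the keratin 14 promoter removes JNK1 from cells that express keratin 14. Per the study's methods the controls were littermates, and whether they carried floxed Mapk8 alleles is not stated for these libraries. The cells were sorted as EpCam+ CD49f hi, no library came from untreated skin, and libraries are named by genotype and replicate number.

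Fold enrichment is the authors' ratio of fragments piled up at a peak's summit to the local background, and its percentile is the rank of that ratio within the library's own list. The summit pileup is the number of fragments over the summit, recovered from the fold and its p-value. Taking WT 1 as the unit, depth came to 0.691 for WT 2 and to 1.12 and 0.644 for the Mapk8-KO pair, so replicate 2 was the shallower library of each genotype. The targeted gene had an open promoter in every library, with a fold of 9.27 and 10.9 in WT and 9.43 and 12.1 in Mapk8-KO. A promoter peak does not report on the deletion, so the genotype labels were not checked by it. Of 21911 coding genes, 55.0% had a promoter region called in all 4 libraries and 35.2% had none. Among promoters of marker genes, 4 of 7 basal keratinocyte, 3 of 5 suprabasal and 4 of 7 hair follicle and sebaceous gland genes were called in all 4 libraries, shares close to that of coding genes, and Krt5, Krt14 and Col17a1 were called in 2 or 3. None of 7 immune markers was called in any library, while 4 of 5 melanocyte, 2 of 5 fibroblast and 2 of 4 endothelial markers were called in all 4. The summed fold was higher in both Mapk8-KO libraries than in both WT libraries for the basal list, 43.2 and 30.0 in WT against 53.5 and 46.6 in Mapk8-KO, for the hair follicle and sebaceous list, 39.1 and 39.6 against 43.3 and 49.1, and for the suprabasal list, 24.4 and 24.0 against 25.1 and 24.9. The ranges of the other lists overlapped. A promoter that was not called added nothing to a sum. The basal difference came with the keratin 14 promoter, Krt14, without which the ranges of the basal sums overlap as well. The hair follicle and sebaceous sum of Mapk8-KO 2 included Krt79 and Awat2, called in that library only, with folds of 5.7 and 3.9. Without these promoters that sum would lie close to the WT sums. The summed fold of the melanocyte promoters was 49.6 to 53.0 in WT and 51.6 to 54.0 in Mapk8-KO, with Tyr not called. The sums for the fibroblast list were 13.6 and 15.2 in WT and 14.6 and 12.1 in Mapk8-KO, and those for the endothelial list were 24.5 and 27.3 in WT and 28.4 and 18.5 in Mapk8-KO. Their part in the elongase values was not tested. The keratin 14 promoter region had a fold of 4.35 in WT 1, no call in WT 2, and 15.5 and 14.6 in the Mapk8-KO libraries, which carry the Cre transgene under a keratin 14 promoter.

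The sequences that bear on the results are shown first. AP-1, the dimer of JUN and FOS proteins whose JUN subunits are substrates of JNK kinases, was searched as TGACTCA or TGAGTCA on both strands within 100 bp of each summit. Of the 66 elongase regions, 11 (16.7%) held it, against 23.7% of all regions. Windows around the summit of 4 distal regions are given on the plus strand of mm10, with AP-1 in capitals. Elovl5 4 and Elovl5 9 were called in both WT libraries only, Elovl5 8 ranked higher in Mapk8-KO, and Elovl1 4 was the AP-1 region of the Elovl1 window. Regions are numbered along the chromosome within each gene's window.
Elovl5 4 (chr9:77935958-77936158, intron of Elovl5): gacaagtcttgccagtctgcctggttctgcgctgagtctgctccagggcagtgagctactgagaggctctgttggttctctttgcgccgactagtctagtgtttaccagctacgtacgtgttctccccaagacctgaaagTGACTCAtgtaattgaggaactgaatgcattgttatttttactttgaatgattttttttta
Elovl5 8 (chr9:77965607-77965807, intron of Elovl5): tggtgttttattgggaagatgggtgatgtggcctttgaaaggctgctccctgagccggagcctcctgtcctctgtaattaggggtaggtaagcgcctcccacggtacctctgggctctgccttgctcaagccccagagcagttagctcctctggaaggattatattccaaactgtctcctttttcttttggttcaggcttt
Elovl5 9 (chr9:77972931-77973131, intron of Elovl5): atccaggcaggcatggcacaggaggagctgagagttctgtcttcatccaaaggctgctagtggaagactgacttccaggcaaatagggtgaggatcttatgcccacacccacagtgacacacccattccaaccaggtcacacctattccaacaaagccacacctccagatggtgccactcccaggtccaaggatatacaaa
Elovl1 4 (chr4:118434592-118434792, intron of Cdc20): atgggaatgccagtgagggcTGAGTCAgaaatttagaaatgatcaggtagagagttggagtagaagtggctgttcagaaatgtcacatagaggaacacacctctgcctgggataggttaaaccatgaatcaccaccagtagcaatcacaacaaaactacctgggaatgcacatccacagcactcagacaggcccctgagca
The window of Elovl5 4 holds TGACTCA and that of Elovl1 4 holds TGAGTCA, while the windows of Elovl5 8 and Elovl5 9 hold neither. AP-1 was thus in 1 of the 2 WT-only regions. Elovl6 12 (chr3:129588792-129588992, intron of Elovl6) was the only elongase region with 2 copies, 1 of each spelling, and is shown for that reason, chosen after its values were seen.
Elovl6 12: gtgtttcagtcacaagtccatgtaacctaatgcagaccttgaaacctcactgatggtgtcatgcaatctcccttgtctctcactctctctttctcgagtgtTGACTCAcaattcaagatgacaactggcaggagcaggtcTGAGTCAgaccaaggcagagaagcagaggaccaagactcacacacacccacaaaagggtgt

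RefSeq promoter windows on GRCm38, from 250 bases before to 50 after a start site, were given for 6 of the 7 genes and not for Elovl3. None of the 8 windows of these genes held AP-1, which 5.2% of all promoter windows held. The 250 bases upstream of Elovl1, the gene singled out by the study, and of Elovl5, the elongase promoter with the highest fold, are shown on their coding strand, which is the plus strand. Capitals mark the GC box, spelled GGGCGG, the CCAAT box with just those letters, the E-box, spelled CACGTG, and the cyclic AMP response element, spelled TGACGTCA, each searched on both strands.
Elovl1 (chr4:118427843-118428092): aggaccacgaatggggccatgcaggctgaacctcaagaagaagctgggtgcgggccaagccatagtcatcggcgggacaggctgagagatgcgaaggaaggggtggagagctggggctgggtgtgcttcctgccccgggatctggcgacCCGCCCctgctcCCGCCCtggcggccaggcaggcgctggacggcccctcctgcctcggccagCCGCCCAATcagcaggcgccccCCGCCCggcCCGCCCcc
Elovl5 (chr9:77917115-77917364): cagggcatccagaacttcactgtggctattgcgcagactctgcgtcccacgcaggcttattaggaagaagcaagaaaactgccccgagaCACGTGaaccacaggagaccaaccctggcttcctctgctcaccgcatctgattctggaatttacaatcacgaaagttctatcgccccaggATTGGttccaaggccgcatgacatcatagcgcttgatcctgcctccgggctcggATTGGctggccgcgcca
The Elovl1 window held 5 GC boxes and 1 CCAAT box, which overlaps a GC box. That of Elovl5 held no GC box, 2 CCAAT boxes and 1 E-box, and 1 cyclic AMP response element lies in the part of its window after the start site. GC boxes were in 35.7% of all windows, CCAAT boxes in 37.4%, E-boxes in 7.15% and the cyclic AMP response element in 1.79%. Elovl7 had 3 GC boxes, Elovl4 had 2, and the upper window of Elovl2 had 5. The Elovl6 window held none of these 4 motifs.

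Of the 66 elongase regions, 39 were called in all 4 libraries, a share of 59.1% against a background of 48.6% of all regions. WT 1 called 63 of the 66, WT 2 called 48, Mapk8-KO 1 called 52 and Mapk8-KO 2 called 45. Over all regions these libraries called 83.8%, 65.2%, 83.2% and 59.1%. In the elongase windows, WT 1 and Mapk8-KO 1 thus stood further apart than over the genome. The gap came with 10 regions called in WT 1 alone (15.2% against 9.08% of all regions), while 1 was called in Mapk8-KO 1 alone (1.52% against 8.47%). Of those 10, 5 lay at Elovl6, 3 at Elovl7, 1 at Elovl5 and 1 at Elovl4, with folds from 2.27 to 6.71 and pileups from 12 to 46 fragments. In sorted bulk cells, fewer cells with an open region and less opening per cell cannot be told apart.

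**Figure D1:**
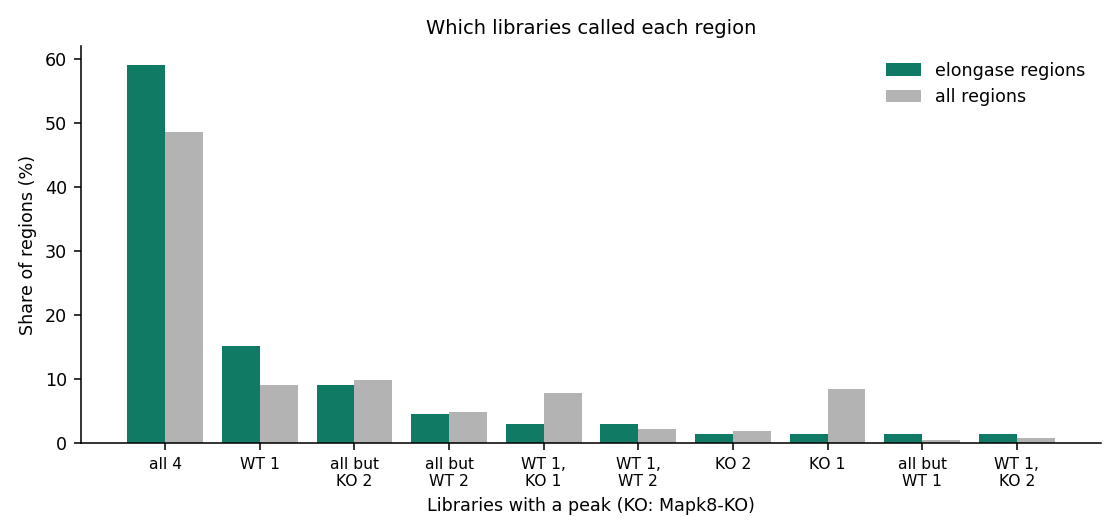
Share of regions (%, vertical axis) by the libraries that called them (horizontal axis), for the 66 elongase regions and for all 82641 regions, with combinations that hold at least 1 elongase region. The elongase regions stand higher than all regions in the bars for all 4 libraries (59.1% against 48.6%) and for WT 1 alone (15.2% against 9.08%), and lower for Mapk8-KO 1 alone (1.52% against 8.47%).

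In both WT libraries and no Mapk8-KO library, 2 elongase regions were called, where the background over all regions was 2.17%. Both lay in introns of Elovl5, which encodes an elongase of polyunsaturated fatty acids. Elovl5 4 (chr9:77935962-77936178) had a fold of 4.69 in WT 1 and 5.2 in WT 2, with 33 and 27 fragments at the summit. Elovl5 9 (chr9:77972957-77973155) had a fold of 6.71 and 7.9, with 20 and 19 fragments. Over all peaks the median pileup was 33 fragments in WT 1 and 28 in WT 2, so Elovl5 9 lay below the median of both libraries. Called in both Mapk8-KO libraries and no WT library were 0 elongase regions, against a background of 1.65%. With 1 library left out the WT-only count ran from 2 to 12, being 12 without WT 2 and 8 without Mapk8-KO 1. The Mapk8-KO-only count ran from 1 to 3. The rule then asks for 1 library fewer, so higher counts can be expected from the rule itself. No shares over all regions are given for these counts.

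The promoters of 6 of the 7 elongase genes were open in every library, where 55.0% of coding genes had a promoter region called in all 4. The values of these 6 promoters in WT and Mapk8-KO lay close together. Promoter regions lie within 2 kb of a start site, and the one with the highest mean fold is given for each gene.

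**Figure D2:**
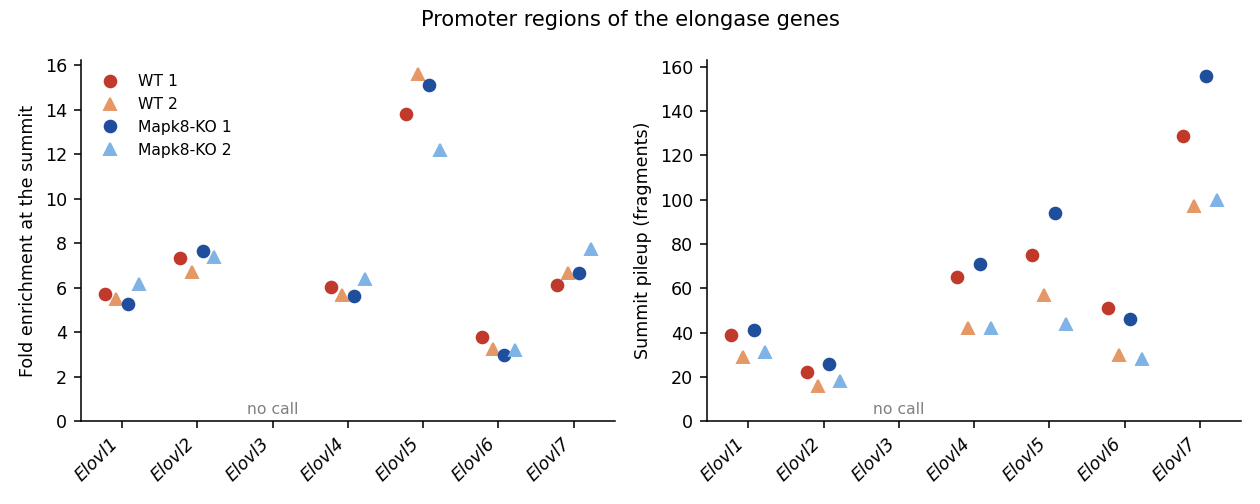
Fold enrichment at the summit (left) and summit pileup in fragments (right) of the promoter region of each elongase gene, with 1 point per library and no error bars. Elovl5 has the highest fold (12.2 to 15.6), Elovl6 the lowest (2.97 to 3.77), Elovl7 the highest pileup (97 to 156 fragments), and Elovl3 has no promoter region.

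Elovl1, whose product makes very-long-chain saturated fatty acids for ceramides, had 5 regions in its 5 kb window, 2 of them called in all 4 libraries. The study named this locus from these same libraries, so its values here are no independent evidence of a direction. The promoter region Elovl1 2 (chr4:118427598-118428755) had a fold of 5.73 and 5.51 in the WT libraries, against 5.25 and 6.16 in the Mapk8-KO libraries. Both WT values fell between the Mapk8-KO values. Its summit held 39 and 29 fragments in WT against 41 and 31 in Mapk8-KO, and the log2 difference, WT minus Mapk8-KO, was -0.06 ± 0.25 (SE from limma, n = 2 per group, adjusted p = 0.966). Elovl1 1 (chr4:118426523-118426738), upstream of the gene, was called only in the deeper library of each genotype, with a fold of 5.07 in WT 1 and 3.56 in Mapk8-KO 1. Elovl1 3 (chr4:118429582-118429799), at a start site within the gene, was called in WT 2 with a fold of 5.12 and in the Mapk8-KO libraries with 3.89 and 4.78, but not in WT 1. Elovl1 4 (chr4:118434501-118435325) lies beyond the end of Elovl1 in an intron of Cdc20, an activator of the anaphase-promoting complex. It had a fold of 7.02 in WT 1 and 5.49 in WT 2, reached 5.66 in Mapk8-KO 1, and was not called in Mapk8-KO 2, the shallowest library. Elovl1 5 (chr4:118437212-118437677), the Cdc20 promoter, had a fold of 6.68 and 5.05 in WT and 8.19 and 7.09 in Mapk8-KO. By percentile it stood at 43.2 and 15.4 in WT, against 60.7 and 46.6 in Mapk8-KO, without overlap, whereas its log2 pileup difference was -0.07 ± 0.25 (adjusted p = 0.954 by limma). In no fit that left out a library did a region of the Elovl1 window pass limma. Among the pathway promoters described further on, the 3 with percentiles nearest those of Elovl1 2 across the 4 libraries were Ppard, Nr1h3 and Srebf1, at Euclidean distances from 20.5 to 26.4 percentile points.

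Elovl3, which lengthens chains in sebaceous and brown fat cells, had no promoter region in any library. Its 4 regions all lay beyond its 3′ end. Of these, 2 were in exons of Pitx3, 1 at the promoter of Pitx3 and 1 at that of Gbf1. Only Elovl3 4 (chr19:46152146-46152743), the promoter of the Golgi exchange factor gene Gbf1, was called in all 4, with a fold of 14.5, 14.3, 14.1 and 12.7 in WT 1, WT 2, Mapk8-KO 1 and Mapk8-KO 2. Its log2 pileup difference was 0.02 ± 0.18 (adjusted p = 0.981, limma).

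Elovl6, which lengthens palmitate to stearate, had the most regions, 19, with 11 called in all 4 libraries and 14 with summits in its introns. Its promoter region, Elovl6 4 (chr3:129533595-129534437), was the weakest of the 6 promoters by fold. It reached 3.77 and 3.24 in WT, against 2.97 and 3.19 in Mapk8-KO, with a mean percentile of 2.08. Its summit held 51 and 30 fragments in WT and 46 and 28 in Mapk8-KO, above the median peak of each library. The low fold is thus a ratio to a high local background and not a low pileup. The highest ranks by fold lay away from the start site. Elovl6 1 (chr3:129509649-129510346), 22.46 kb upstream and with an AP-1 motif, had a fold of 18.3, 14.1, 13.9 and 15.3 and the highest mean percentile of all elongase regions, 95.8. Elovl6 11 (chr3:129571426-129572201), 39.48 kb into the gene and also with AP-1, had a fold of 13.8, 13.1, 16.2 and 13.1. In both, the WT and Mapk8-KO ranges overlapped, and the log2 pileup differences were 0.03 ± 0.19 and 0.13 ± 0.17 (adjusted p = 0.977 and 0.852 by limma). Elovl6 12, with 2 copies of AP-1, had the highest pileup of the family, 208 and 138 fragments in WT and 244 and 123 in Mapk8-KO.

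Elovl7, an elongase of saturated very long chains, had 14 regions, 7 of them called in all 4 libraries. Its promoter region Elovl7 5 (chr13:108214066-108215168) held 129 and 97 fragments in WT and 156 and 100 in Mapk8-KO, more than any other elongase promoter. Its fold was 6.14 and 6.66 in WT and 6.66 and 7.75 in Mapk8-KO, which is lower than that of Elovl5, so the order of the promoters differed between pileup and fold. The percentiles, 37.7 and 36.8 in WT and 45.7 and 53.8 in Mapk8-KO, did not overlap, and the log2 pileup difference was -0.13 ± 0.16 (adjusted p = 0.839, limma). The regions of the gene with the highest mean percentiles were Elovl7 7 (chr13:108228320-108229676), with a fold of 10.1 in both WT libraries and 10.3 and 11.9 in Mapk8-KO, and Elovl7 11 (chr13:108288813-108289323), with 8.94 and 9.92 in WT and 13.4 and 7.62 in Mapk8-KO. The first lies in an intron and holds AP-1, and the second lies beyond the gene.

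Elovl4 had 11 regions, 8 of them called in all 4. Its promoter region Elovl4 10 (chr9:83806130-83806653) had a fold of 6.03 and 5.68 in WT and 5.61 and 6.41 in Mapk8-KO, with the WT values inside the Mapk8-KO range and a log2 pileup difference of -0.04 ± 0.21 (adjusted p = 0.973, limma). Higher ranks were found inside and beyond the gene. Elovl4 4 (chr9:83781997-83782559), in an intron, had a fold of 13.0, 13.3, 14.5 and 12.5 in WT 1, WT 2, Mapk8-KO 1 and Mapk8-KO 2. Elovl4 3 (chr9:83776804-83777386), just beyond the 3′ end, had a fold of 11.6, 12.0, 14.2 and 11.6. The genotypes overlapped by percentile at both.

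Of the polyunsaturated-chain elongases, Elovl2, which acts late in the synthesis of docosahexaenoic acid, had a single region, its promoter. Elovl2 1 (chr13:41220314-41220730) had a fold of 7.34 and 6.71 in WT and 7.66 and 7.4 in Mapk8-KO, with only 16 to 26 fragments at the summit. The genotypes overlapped by percentile, and the log2 pileup difference was -0.18 ± 0.29 (adjusted p = 0.887, limma). Regions were sparse around this gene, 1.14 per 100 kb against a median of 4.96 over coding genes, whereas the other 6 genes had 7.44 to 16.4 per 100 kb in windows of 25 kb.

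Elovl5, which acts on earlier polyunsaturated substrates, had 12 regions, 9 of them called in all 4. Its promoter region Elovl5 3 (chr9:77916949-77917831) had a fold of 13.8 and 15.6 in the WT libraries, against 15.1 and 12.2 in the Mapk8-KO libraries. The genotypes overlapped, and the log2 pileup difference was 0.05 ± 0.19 (adjusted p = 0.958, limma). Its mean fold of 14.2 was at the 93.0 percentile over coding genes, where the other 5 open elongase promoters lay between 41.1 and 55.5. Genes without a promoter region, 35.2% of coding genes, counted as fold 0 in this ranking. Those 5 thus stood in the lower part of the open promoters. Elovl5 2 (chr9:77910341-77911653), 6.69 kb upstream, had a fold of 13.5 and 13.1 in WT and 15.1 and 15.4 in Mapk8-KO. Its percentiles were higher in both Mapk8-KO libraries than in both WT libraries, and the log2 pileup difference was -0.30 ± 0.17 (adjusted p = 0.542, limma).

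**Figure D3:**
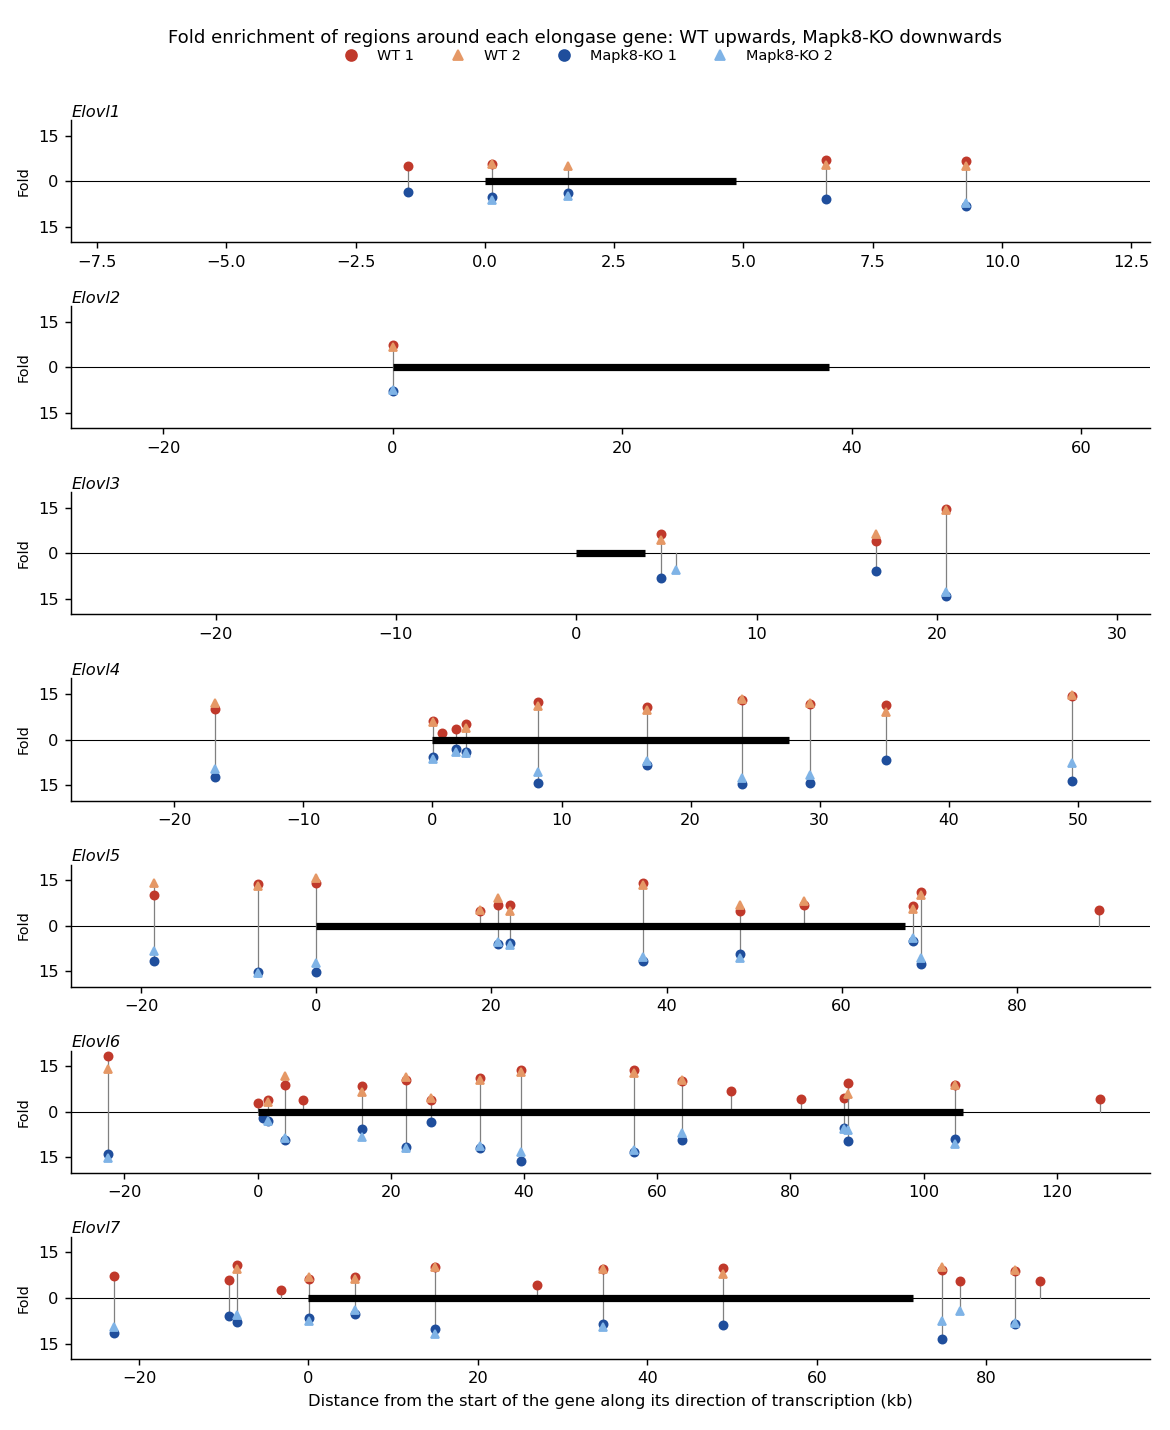
Fold enrichment of every elongase region (vertical axis, WT drawn upwards and Mapk8-KO downwards) against distance from the start of the gene in the direction of transcription (kb, horizontal axis), with 1 point per library and the gene body as a thick bar. Elovl2 shows 1 region at its start, Elovl3 shows none on its body, and the tallest Elovl6 region stands 22.46 kb before the gene.

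By rank, 1 elongase region passed the gap rule, under which both libraries of a genotype must lie at least 10 percentile points above both of the other. It was Elovl5 8 (chr9:77965455-77966132), in an intron 48.34 kb from the start of Elovl5, with a start site of Gm34829 as the nearest. Its fold was 4.79 and 6.71 in WT, against 9.37 and 10.5 in Mapk8-KO. By percentile it stood at 19.1 and 38.1 in WT, against 70.3 and 78.8 in Mapk8-KO, so the gap between the groups was 32.2 points. Its summit held 14 and 16 fragments in WT, against 32 and 26 in Mapk8-KO, with more fragments in the shallow Mapk8-KO library than in the deeper WT 1. Each value lay at or below the median peak of its library, 33 and 28 in WT and 36 and 26 in Mapk8-KO. The log2 pileup difference was -0.92 ± 0.31 (unadjusted p = 0.00487, adjusted p = 0.217, limma), so it was not called over all regions. Over all regions called in 4 libraries, the background of the gap rule was 3.78% higher in Mapk8-KO and 2.65% higher in WT. Against these, the elongase counts were 1 and 0 of 39. With 1 library left out, the counts ran from 3 to 4 in Mapk8-KO and from 1 to 10 in WT, the 10 being without Mapk8-KO 1. The gap rule too then compares fewer libraries, so higher counts can be expected from it.

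By percentile alone, both WT values lay above both Mapk8-KO values in 8 of 39 regions, and both Mapk8-KO values above both WT values in 8, with 23 overlapping. The background shares were 13.8% and 18.9%. The median percentile difference, WT minus Mapk8-KO, was -0.0271 points over the elongase regions and -0.481 over all regions.

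**Figure D4:**
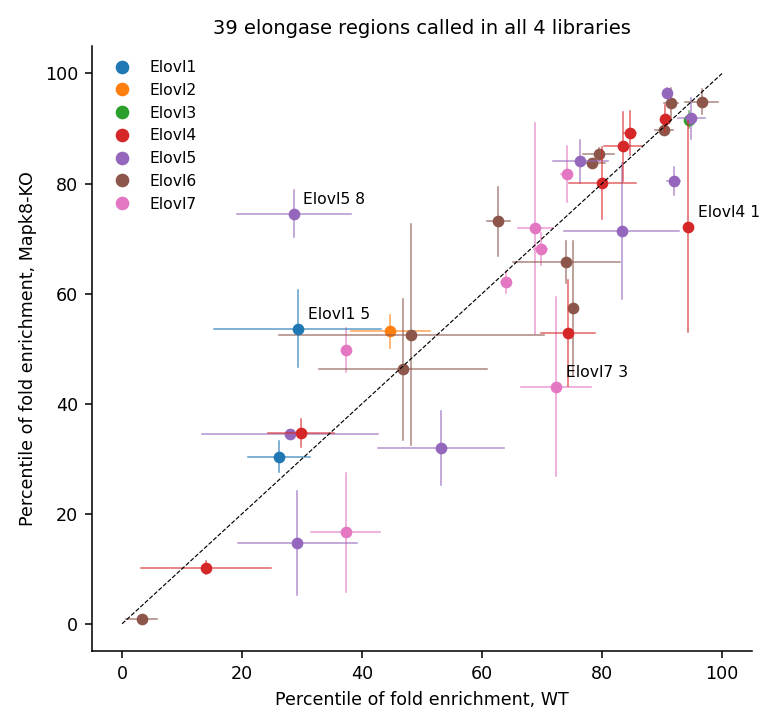
Mean percentile of fold enrichment in Mapk8-KO (vertical axis) against WT (horizontal axis) for the 39 elongase regions called in all 4 libraries, with lines from the lower to the higher of the 2 libraries of each genotype and a dashed line of equality. Most regions lie near the dashed line, and Elovl5 8 stands apart above it, at 28.6 in WT and 74.6 in Mapk8-KO.

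The log2 summit pileup was fitted with limma over the 40159 regions called in all 4 libraries. None of the 39 elongase regions passed an adjusted p of 0.05, where the background was 0.214% higher in WT and 0.0199% higher in Mapk8-KO. At an unadjusted p under 0.05, 6 elongase regions were found, where the background was 10.4% of all regions. Of the 6, 5 were higher in WT and Elovl5 8 in Mapk8-KO. The lowest adjusted p of the family was 0.216. The median log2 difference was 0.045 over the elongase regions and -0.00527 over all regions, with 25 of 39 positive. When each library was centred on its own median instead, a setting chosen after seeing the data, 19 of 39 were positive. In simulated data of the same size, 15 of 100 regions with a log2 change of 1 were called, and 86 of 100 with a change of 2. The spread between simulated libraries was set beforehand and not estimated from these libraries. These shares therefore do not measure how many changes of the size seen here were missed, which is unknown.

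The 6 regions, chosen after their values were seen, were Elovl5 8 and 5 at Elovl4 and Elovl7. Elovl4 1 (chr9:83756580-83757215), beyond the 3′ end of Elovl4, had 78 and 50 fragments in WT and 73 and 20 in Mapk8-KO. The difference of 0.74 ± 0.25 (adjusted p = 0.216, limma) came mostly with Mapk8-KO 2, whose percentile was 53.0, while Mapk8-KO 1, at 91.3, stood near the WT libraries, at 93.6 and 95.1. Without Mapk8-KO 1 it was 1.28 (adjusted p = 0.000124), and without Mapk8-KO 2 it was 0.17 (adjusted p = 0.959). Elovl7 6 (chr13:108219187-108220136) lies in an intron of Elovl7, within 2 kb of a start site of Gm32376. It had 76 and 43 fragments in WT and 57 and 24 in Mapk8-KO, a difference of 0.66 ± 0.23 (adjusted p = 0.236, limma). Without Mapk8-KO 1 this region and Elovl5 8 were also called, with adjusted p = 0.018 and 0.0371, in a fit that called 1579 regions higher in WT and 370 higher in Mapk8-KO and took the lone Mapk8-KO library to vary as the WT libraries did. Elovl4 5 (chr9:83789195-83789876) had 64 and 36 fragments in WT and 44 and 23 in Mapk8-KO, and Elovl7 3 (chr13:108205791-108206471) had 43 and 27 against 31 and 15. Elovl7 9 (chr13:108248945-108249784) had 62 and 40 against 47 and 28. In these 3 regions the ranges of raw pileup overlapped, and each Mapk8-KO library lay below the WT library nearest to it in depth.

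**Figure D5:**
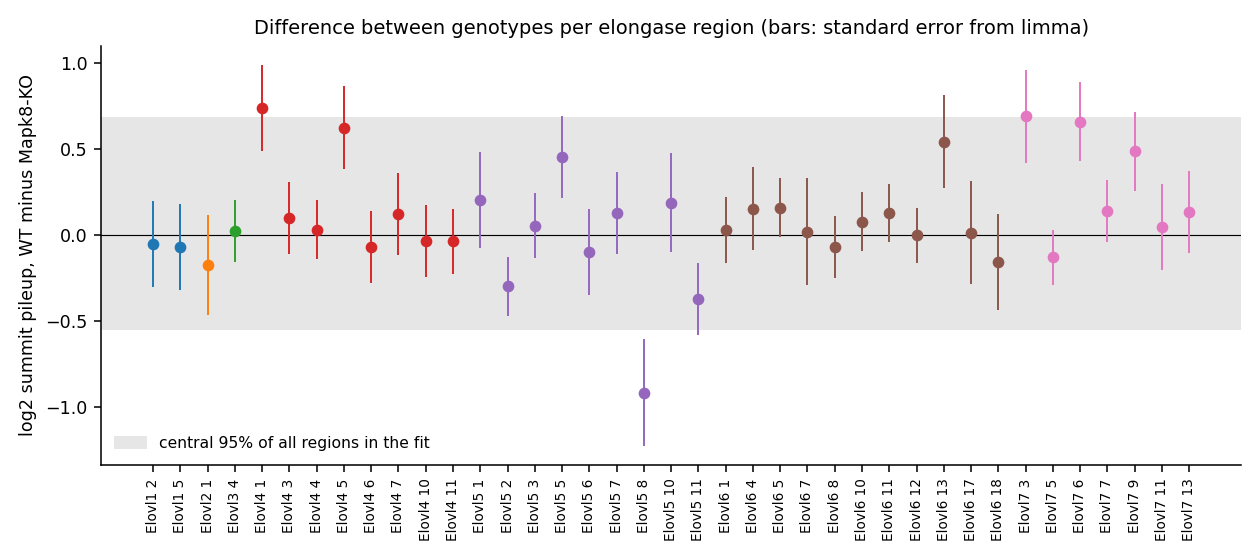
Difference in log2 summit pileup, WT minus Mapk8-KO (vertical axis), for the 39 elongase regions called in all 4 libraries (horizontal axis, by gene), with points for the limma estimate, bars for its standard error and a grey band for the central 95% of all 40159 regions. Elovl5 8, at -0.92, lies furthest from 0, and the regions above 0.6 belong to Elovl4 and Elovl7.

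By gene, the median log2 difference was 0.14 over 7 Elovl7 regions, of which 6 were positive, 0.06 over 8 Elovl4 regions, 0.05 over 9 Elovl5 regions and 0.03 over 11 Elovl6 regions. Both Elovl1 regions and the Elovl2 region were negative, between -0.18 and -0.06. The signs of the medians held for Elovl1, Elovl2 and Elovl7 under quantile normalization, log2 fold and own-median centring, although the positive Elovl7 regions numbered 4 with log2 fold and 5 with own-median centring, whereas the Elovl4 median turned to -0.03 with log2 fold, the Elovl6 median to -0.02 and the Elovl3 value to -0.03 with own-median centring, and the Elovl5 median to 0.0 with the last. The 9 elongase regions with AP-1 had a median of 0.12 and the 30 without it 0.03. Over all regions these medians were 0.13 with AP-1 (n = 9815) and -0.05 without (n = 30344). At an unadjusted p under 0.05 stood 0 of the 9 elongase regions with AP-1 and 6 of the 30 without, none of them called after adjustment. Over all regions the shares were 15.4% with AP-1 and 8.83% without.

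Genes that work with the elongases were read by their promoter regions. Of 41 pathway genes, 29 had a promoter region called in all 4 libraries, 3 in fewer and 9 in none, where 55.0% of coding genes had one in all 4. All 6 partners of the elongation cycle were open in every library. Hsd17b12, the ketoreductase, had a fold of 15.2 and 15.1 in WT and 14.3 and 13.9 in Mapk8-KO, and Tecr, the final reductase, had 7.33 and 7.9 in WT and 7.3 and 7.83 in Mapk8-KO. The dehydratase genes Hacd1, Hacd2, Hacd3 and Hacd4 ranged from 5.72 to 12.8. Among desaturase genes, Scd1, Scd2, Scd3 and Fads6 were called in all 4, Fads1 and Fads3 in all but WT 2, and Scd4 and Fads2 in none. Of the genes of precursor supply, Acly, Fasn, Mcat and Slc25a1 were called in all 4 and Acaca and Acacb, which encode acetyl-CoA carboxylases, in none. Of 11 regulators, 10 were open in all 4, Srebf1, Nr1h3 and Insig1 among them, and Pparg was not called.

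The gap rule was passed by 3 of the 29 pathway promoters, 2 higher in WT and 1 in Mapk8-KO, against 2.65% and 3.78% of all regions. Scd2, a stearoyl-CoA desaturase, ranked higher in WT, with percentiles of 30.9 and 36.4 against 20.3 and 10.6. Mcat, the mitochondrial malonyl transferase, also ranked higher in WT, at 79.7 and 79.9 against 66.1 and 45.2. Acsl1, a long-chain acyl-CoA synthetase, ranked higher in Mapk8-KO, at 67.5 and 65.5 against 79.7 and 82.1. By limma 0 of 29 were called, and Acsl1, at -0.50 ± 0.19 (adjusted p = 0.308), was the 1 with an unadjusted p under 0.05, against 10.4% of all regions. Both Mapk8-KO percentiles lay above both WT percentiles in 10 of the 29, and the reverse held in 3. Over all 14530 promoter regions in the fit these shares were 24.0% and 9.98%. The median log2 difference was -0.13 over the 29 and -0.09 over those promoter regions.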

How the data were processed

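The authors mapped paired reads of 4 ATAC-seq libraries to mm10 with Bowtie2, filtered them with samtools and called peaks per library with MACS2 without a control library. No Tn5 shift is stated. The deposited lists give a fold enrichment (a ratio to local background), −log10 p and −log10 q values, a score derived from q and the summit offset. The submitters' processing notes also name Trimmomatic 0.36, STAR 2.5.3 and Picard.

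From these, peaks were merged at 1 bp overlap and placed on GENCODE M21 genes. Summit pileups, solved from fold and −log10 p, were whole numbers to within 0.05 in at least 99.996% of peaks per library. Their log2 values, aligned by the median deviation from region means, were tested with limma 3.58.1 (R 4.3.3, variance trend, Benjamini-Hochberg adjustment over 40159 regions), and the fit was tested on simulated data. The study's DESeq2 test needs read counts, which were not used here. An exact permutation test of 2 against 2 cannot go below p = 0.333, so none was run. The study describes the libraries of each group as independent samples, without saying whether each came from 1 mouse or a pool, and the labels do not say, so p-values measure the spread between these libraries. The total number of reads is unknown, and pileups cover counting error only.

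The members and lists were chosen with earlier results of these data known. Regions named were each promoter, all of the Elovl1 window, those called in 1 genotype or passing the rank gap or limma, and the 2 of highest mean percentile per gene. Regions named outside this rule were chosen after their values were seen. Alternatives covered window size, list length, q, percentile base, gap, normalization, variance trend, pseudocount, a minimum pileup of 20, the replicate block and leaving out each library.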

Additional observations from a re-analysis of the deposited data

How the results depend on the processing

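Of 116 alternative values of 9 results, from 21 settings, 88 kept the reported value within the spread of the libraries or, for counts, within 1.5 times. Assigning regions to the gene with the nearest start site gave 32 elongase regions, 18 of them called in all 4 libraries, 1 WT-only, and 0 ranked higher in Mapk8-KO. Lists of equal length gave 1 Mapk8-KO-only region and 4 ranked higher in WT. Percentiles among regions called in all 4, a gap of 5 points, and the rank rule applied within same-numbered pairs (replicate block) each gave 4 ranked higher in WT and 2 higher in Mapk8-KO. The causes were not tested. Leaving out 1 library at a time, elongase regions ran from 56 to 66, those called in all libraries from 39 to 45, WT-only from 2 to 12, Mapk8-KO-only from 1 to 3, ranked higher in WT from 1 to 10 and in Mapk8-KO from 3 to 4, and called by limma from 0 to 2 in WT and 0 to 1 in Mapk8-KO. The median log2 difference then ran from 0.0472 to 0.104, and a fit with 1 library in a genotype takes it to vary as the others did. The call and rank rules ask for fewer libraries when 1 is left out, so their counts can rise for that reason.

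The labels use the same replicate numbers in both genotypes, and whether same-numbered libraries were processed together is not stated. Changes from replicate 1 to 2 correlated with r = 0.0392 between genotypes across regions, and replicate 2 was the shallower library of each genotype. With the replicate block, limma called 272 regions higher in WT and 36 in Mapk8-KO over all regions, against 86 and 8 without it, and 0 elongase regions, with a lowest adjusted p of 0.0985. Over all regions, 26 and 3 were called after quantile normalization, 45 and 3 with a pseudocount of 5, and 0 with log2 fold or without the variance trend, where 2698 and 3898 regions had an unadjusted p under 0.05. No elongase region was called in these, and the median of the 39 was -0.0111 with log2 fold. Centring each library on its own median, chosen after seeing the data, called 200 and 44 over all regions, 0 elongase regions, and moved the median of the 39 to -0.00322 and that of all regions to -0.0535. Peaks near the lowest pileup of 8 to 10 fragments can be missed in the shallower libraries, and the part of depth in the missing calls was not tested.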

Other observations

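The promoter windows of the elongase genes differed in base composition. The GC content over the RefSeq window was 57.7% in Elovl5 and 55.7% in Elovl6, the promoters with the highest and the lowest fold, against a median of 52.7% over 32851 windows. It was 70.7% in the window at the first start of Elovl1, 71.0% in Elovl4, 74.0% in Elovl7, and 76.7% and 84.7% in the windows of Elovl2. The ratio of observed to expected CpG was 0.808 in Elovl5, 0.61 in Elovl6, 0.534 at the first start of Elovl1 and 1.04 and 1.08 in Elovl2, with a median of 0.384 over all windows. Elongase regions were 479 bp wide at the median and all regions 410 bp, and both had a median GC content of 50.2% around the summit.

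Other motifs occurred in the 66 elongase regions at 1.52% for the sterol element TCACNCCAC (1.03% of all regions), 1.52% for the grainyhead motif AACCNGTT (3.17%), 3.03% for the cyclic AMP response element (0.772%), 6.06% for the E-box (4.76%), 16.7% for the GC box (17.2%) and 27.3% for the CCAAT box (24.5%). The cyclic AMP response element was in 2 regions, 1 of them the Elovl5 promoter region and the other Elovl6 5, which also held the sterol element. Elovl6 5 lies in an intron of Elovl6, within 2 kb of a start site of Gm43072. Elovl6 5 was chosen after its values were seen, and its fold was 8.79 and 11.6 in WT and 9.3 and 8.5 in Mapk8-KO.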
